A study of Mus musculus with 11 samples.

Results

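A set of 38 interferon-stimulated and class I antigen presentation genes was followed across luminal and basal cells of the mouse mammary gland with and without a hairpin against Ror2, a receptor tyrosine kinase that binds Wnt5a. The 38 genes were listed by name, and the list was drawn up with earlier results of these data known. A probe named through its RefSeq accession was found for 36 of them, among 20145 genes with such a probe. Of these, 34 were bright enough to test, among 14068 named genes and 29429 features (named genes and unnamed probes) tested in all. Primary mammary epithelial cells were infected with lentivirus carrying a hairpin against luciferase (shLUC, the control) or against Ror2 (shROR2) and were prepared in Matrigel for injection to form outgrowths. All groups therefore carry a lentiviral hairpin, and none is uninfected. Luminal and basal cells of the outgrowths were then sorted on CD24 and CD29, and their amplified RNA was put on 1-colour Agilent arrays. There were 3 luminal and 3 basal shLUC arrays, called controls, and 2 luminal and 3 basal shROR2 arrays, 11 in all. The labels call the samples biological triplicates, of which 1 luminal shROR2 sample was not analysed here. They do not give the strain, age or number of mice, or which luminal and basal samples came from 1 outgrowth, so p-values measure the spread between these samples. The study asked what Ror2 does in each compartment.

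Type I and type III interferons are secreted when a cell senses viral nucleic acid. Type I and type III interferons signal through JAK kinases to a complex that holds STAT2 and IRF9 and binds the interferon-stimulated response element (ISRE), whereas interferon gamma acts at the gamma-activated site (GAS) and induces IRF1. Their targets include antiviral proteins and the class I pathway, in which the immunoproteasome cuts proteins into peptides, the TAP transporter carries them into the endoplasmic reticulum, and heavy chains with beta-2 microglobulin display them at the cell surface.

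Promoter sequence was read from RefSeq (GRCm38.p6), as the 250 bases before each start site, for the 30 of 38 genes with an entry. Of these, 6 are printed 5′ to 3′ on the gene's strand: Irf1, the gene called after the hairpin; Isg15 and Rsad2, antiviral genes with response elements; and Psmb8, Ifitm3 and Bst2, which differed between compartments under both hairpins. Capitals mark matches to the ISRE letters (GAAA, any 2 bases, GAAA) or the GAS letters (TTC, any 3 bases, GAA), searched on both strands.
Irf1: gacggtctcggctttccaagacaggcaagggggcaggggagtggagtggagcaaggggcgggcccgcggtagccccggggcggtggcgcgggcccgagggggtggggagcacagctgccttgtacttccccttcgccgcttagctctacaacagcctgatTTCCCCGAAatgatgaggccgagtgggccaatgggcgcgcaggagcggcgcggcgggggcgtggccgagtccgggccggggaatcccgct
Psmb8: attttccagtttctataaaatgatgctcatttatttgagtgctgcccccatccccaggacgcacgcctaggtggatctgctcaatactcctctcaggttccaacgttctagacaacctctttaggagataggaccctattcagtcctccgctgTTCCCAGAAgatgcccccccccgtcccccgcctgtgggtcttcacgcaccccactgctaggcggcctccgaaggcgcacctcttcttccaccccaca
Isg15: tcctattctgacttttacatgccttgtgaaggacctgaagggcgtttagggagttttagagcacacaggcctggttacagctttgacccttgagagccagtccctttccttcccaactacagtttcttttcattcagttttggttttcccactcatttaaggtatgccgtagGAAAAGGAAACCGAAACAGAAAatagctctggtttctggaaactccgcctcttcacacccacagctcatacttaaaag
Rsad2: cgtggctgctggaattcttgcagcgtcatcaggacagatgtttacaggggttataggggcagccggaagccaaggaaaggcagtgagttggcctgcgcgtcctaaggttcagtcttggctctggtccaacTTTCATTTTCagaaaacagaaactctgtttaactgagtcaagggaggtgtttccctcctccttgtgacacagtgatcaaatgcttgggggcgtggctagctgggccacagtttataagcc
Bst2: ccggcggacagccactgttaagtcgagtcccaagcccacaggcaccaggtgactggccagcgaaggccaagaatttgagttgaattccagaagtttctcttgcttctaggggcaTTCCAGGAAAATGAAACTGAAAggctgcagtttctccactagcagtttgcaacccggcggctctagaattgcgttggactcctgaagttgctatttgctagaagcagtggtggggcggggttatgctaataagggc
Ifitm3: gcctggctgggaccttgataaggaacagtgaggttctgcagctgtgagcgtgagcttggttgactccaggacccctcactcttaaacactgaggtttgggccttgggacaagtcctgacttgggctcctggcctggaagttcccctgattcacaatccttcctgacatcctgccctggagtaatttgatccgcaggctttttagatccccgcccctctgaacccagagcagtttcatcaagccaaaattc
The windows lie at chr11:53769764-53770013 on the plus strand for Irf1, chr17:34197945-34198194 on the plus strand for Psmb8, chr4:156200819-156201068 on the minus strand for Isg15, chr12:26456453-26456702 on the minus strand for Rsad2, chr8:71537473-71537722 on the minus strand for Bst2 and chr7:141010745-141010994 on the minus strand for Ifitm3. Irf1 held 1 GAS match, from 90 to 82 bases before the start site, and Psmb8 held 1, from 97 to 89 bases before it. Isg15 held 3 overlapping ISRE matches between 78 and 57 bases before the start. Rsad2 held 1 ISRE match on the opposite strand, from 120 to 111 bases before the start. In Bst2, 2 overlapping ISRE matches between 130 and 115 bases before the start were overlapped by a GAS match. Ifitm3 held neither set of letters in this window. The ISRE letters occurred in 11 of the 30 genes (36.7%), against 3.46% of 27025 genes. The GAS letters occurred in 6 of 30 (20%), against 8.13%. Matches are a description of the letters and not of binding. Both motifs were present in genes higher in basal cells and in genes lower there, as the values show.

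The sorted populations carried their lineage genes. Of 18 luminal markers, 17 were lower in basal shLUC than in luminal shLUC arrays, and 17 of 18 basal markers were higher. Between 52.8% and 59.5% of probes were well above background on an array, no probe was saturated, and the number of arrays limits the precision. Signals are given divided by the array's 75th percentile signal (scaled signal, 1 at that percentile), and changes are differences of mean log2 scaled signal with the standard error (SE). The Ror2 probe, which checks the hairpin, was well above background on 1 of 11 arrays. Luminal controls read 0.0278, 0.0297 and 0.0297, and luminal arrays with the hairpin 0.0292 and 0.0735. Basal controls read 0.0961, 0.0923 and 0.0877, and basal arrays with the hairpin 0.147, 0.0262 and 0.0617. The highest reading was in the first basal shROR2 array, so loss of the Ror2 transcript could not be read from this probe. Basal shROR2 arrays were the least alike, with pairwise correlations of 0.941 to 0.953 over the features tested, against 0.976 to 0.983 in the other groups.

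Markers of other cell types were measured in the sorted samples and moved with the compartment and the hairpin. Of 23 leukocyte markers tested out of 27, 13 were lower in basal than in luminal shLUC arrays (median log2 change -1.01), and 9 were higher in basal shROR2 than in basal shLUC arrays (median 1.04). Their summed scaled signal, without the bright Itgam probe, was 113 to 115 in the luminal controls and 149 to 150 with the Ror2 hairpin. In basal arrays it was 75.4 to 80.1 in the controls and 117 to 128 with the hairpin. With Itgam it was 534 to 562, 572 to 597, 448 to 525 and 573 to 582 in the same order. Ptprc, the pan-leukocyte CD45 gene, was well above background on all arrays at 0.359 to 0.567. The class II gene Cd74 read 25.7 to 28.3 in the luminal controls against 37 to 42.9 with the hairpin, and 12.6 to 14.5 in the basal controls against 28.3 to 35.8. The 13 fibroblast markers tested summed to 7.37 to 7.73, 12.3 to 12.9, 73.3 to 80.5 and 67.3 to 83.9 in that order of groups, and 13 endothelial markers to 14.8 to 15, 19.6 to 20.6, 29.1 to 37.3 and 56.7 to 67.1. All 13 fibroblast and 9 of 13 endothelial markers were higher in basal than in luminal shLUC arrays. Because many members are also expressed in leukocytes and stroma, these values stand beside every result, and the part of such cells in them was not tested. In bulk samples, fewer cells of a type and less RNA per cell cannot be told apart.

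In control outgrowths, 4 of 7 genes of peptide processing and display were lower in basal than in luminal cells, while 3 members, Ifitm3, Bst2 and Nlrc5, were more than 5-fold higher in basal cells. Of 34 members tested, 4 were higher and 7 lower in basal shLUC (limma with Benjamini-Hochberg adjustment, adjusted p under 0.05), 11 in all (32.4%). Over all features, 13.8% were higher and 13% lower, 26.9% in all. Of the 14068 named genes tested, to which the members belong, 33.8% were called. The median change was -0.21 over the members and -0.06 over all features tested.

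Class I presentation was measured with 7 members, 4 of which were called lower and none higher. Psmb9, Tap1, Psmb8 and Tap2 are neighbours in the class II region at chr17:34182030-34216321, and the start windows of Psmb9 and Tap1 overlap. Psmb8, a catalytic subunit of the immunoproteasome, read 13.4, 13.4 and 13.3 in luminal controls and 5.21, 4.27 and 4.69 in basal controls. The luminal arrays were all above the basal ones, a 2.84-fold difference (log2 change -1.50 ± 0.12 SE, n = 3 and 3, limma adjusted p = 2.16e-05). Psmb9, another catalytic subunit, read 9.40, 9.60 and 8.17 against 4.19, 2.91 and 3.46 (-1.38 ± 0.24, limma adjusted p = 0.00259). Tap2, a subunit of the peptide transporter, read 7.55, 9.81 and 7.19 against 3.25, 2.95 and 4.11 (-1.25 ± 0.19, limma adjusted p = 0.00137). All 3 were therefore lower in every basal array than in any luminal array. Tap1, the transporter's other subunit, gave a different reading. It was not well above background on any luminal array and read 0.161, 0.136 and 0.157 in basal shLUC, at least 1.22-fold higher there (limma adjusted p = 0.213).

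Heavy chains differed less. H2-K1 read 196, 207 and 190 in luminal controls and 150, 147 and 149 in basal controls, 1.33-fold lower with no overlap (-0.41 ± 0.09, limma adjusted p = 0.011), and its other probe gave -0.38 ± 0.11. H2-D1, the other classical heavy chain gene here, read 124, 119 and 113 against 98.5, 95.0 and 100 (-0.28 ± 0.09, limma adjusted p = 0.0556). B2m, which encodes beta-2 microglobulin, read 79.5, 81.5 and 80.7 against 70.1, 67.9 and 69.4 (-0.22 ± 0.09, limma adjusted p = 0.108). For H2-D1 and B2m the arrays of the groups did not overlap, but the change missed the threshold. Class I heavy chain genes are close relatives, and whether these probes tell them apart was not tested.

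**Figure D1:**
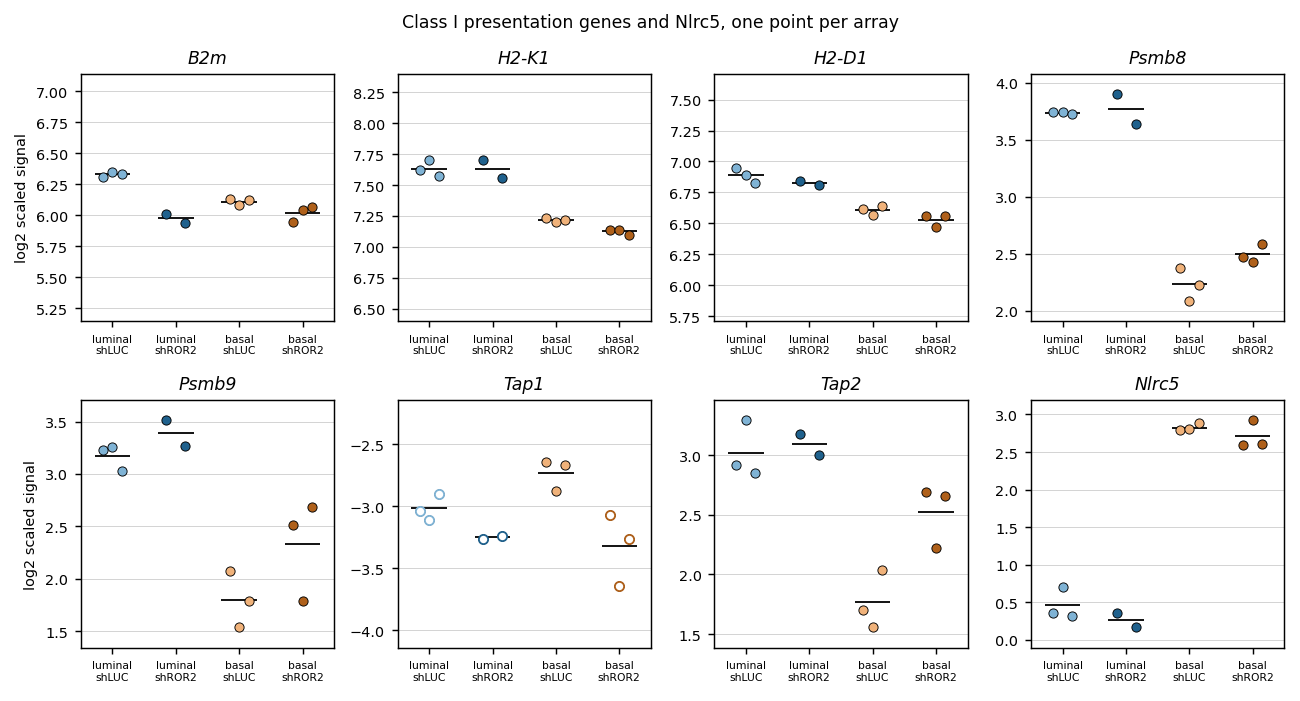
Log2 scaled signal (processed signal over the array's 75th percentile) of 7 class I presentation genes and Nlrc5 on each array, by group. Points are arrays, bars are group means and open points are arrays where the probe was not well above background; each panel has its own axis. Psmb8, Psmb9 and Tap2 sit lower in both basal groups than in the luminal groups, Nlrc5 sits higher, and Tap1 is dim on 8 of 11 arrays.

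Nlrc5, a transactivator of class I genes, ran opposite to the 4 class I members called lower. It read 1.28, 1.63 and 1.25 in luminal controls and 6.93, 6.94 and 7.34 in basal controls, 5.14-fold higher (2.36 ± 0.14, limma adjusted p = 4.3e-06). A dimmer Nlrc5 probe moved the same way by less (0.83 ± 0.22). The plot of class I genes by array shows Nlrc5 high in the arrays where Psmb8, Psmb9 and Tap2 were low.

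Among antiviral effectors, 2 of 16 tested were higher and 2 lower in basal shLUC. Ifitm3, a membrane protein that blocks viral entry, read 34.5, 32.3 and 33.6 in luminal controls and 218, 202 and 229 in basal controls. It was 6.45-fold higher (2.69 ± 0.10, limma adjusted p = 2.24e-07). Bst2, or tetherin, which holds budding virions at the surface, read 1.40, 1.83 and 1.38 against 8.55, 8.48 and 9.10 (2.52 ± 0.15, limma adjusted p = 4.06e-06). Every basal array exceeded every luminal array for both membrane proteins. Ubd, the ubiquitin-like modifier FAT10 induced by interferon gamma and TNF, read 0.418, 0.628 and 0.472 in luminal controls and 0.0988, 0.0993 and 0.109 in basal controls, where 1 array was not well above background. It was 4.88-fold lower (-2.29 ± 0.20, limma adjusted p = 4.05e-05). Rsad2, the radical-SAM enzyme viperin, read 1.36, 1.26 and 1.15 against 0.351, 0.664 and 0.370 (-1.50 ± 0.27, limma adjusted p = 0.00332). Both changes were smaller, though called, with normexp background correction (-0.74 for Ubd and -0.88 for Rsad2) and in the authors' deposited table (-0.68 and -0.82). The remaining effectors did not pass. Oas2 (-1.01) and Oas1a (-0.75), which are oligoadenylate synthetases, Gbp2 (-0.48), a guanylate-binding GTPase, and Ifi35 (-0.31) were on the negative side. Ifit3 (0.47), Oasl2 (0.44), Xaf1 (0.19), Gbp3 (0.15) and Ifi44 (0.04) were on the positive side. Isg15, a ubiquitin-like modifier, differed by -0.05 ± 0.26, Zbp1, a sensor of Z-form nucleic acid, by -0.21 and Eif2ak2, the kinase PKR, by -0.12. Zbp1's probes disagreed in direction. Ifit1 and Ifit2 were well above background on 1 of 11 arrays each and were not tested, and no value is given for Mx1 and Mx2.

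**Figure D2:**
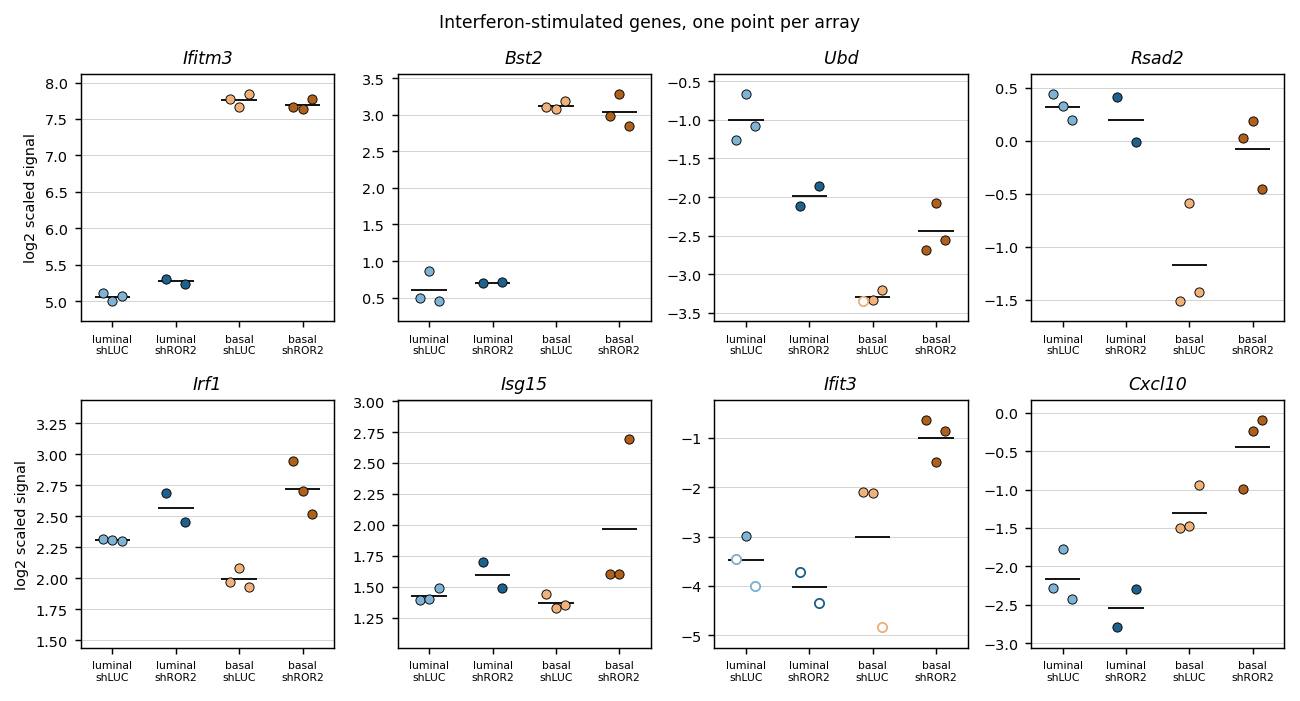
Log2 scaled signal of 8 interferon-stimulated genes on each array, by group, with group means as bars and open points where the probe was not well above background; each panel has its own axis. Ifitm3 and Bst2 separate basal from luminal arrays under both hairpins, whereas Ubd, Rsad2 and Irf1 are lower in basal shLUC than in basal shROR2 arrays.

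Among the 3 sensors and 7 regulators, Ifih1 and Stat2 were called besides Nlrc5. Ifih1, the long double-stranded RNA sensor MDA5, read 0.582, 0.713 and 0.494 in luminal controls and 0.320, 0.254 and 0.185 in basal controls (-1.26 ± 0.25, limma adjusted p = 0.0061), and its dimmer probe gave -1.52 ± 0.64. The change was -0.51 with normexp background correction and -0.46 in the authors' deposited table, called in both. The other RNA helicase sensors, Dhx58 (-0.57) and Ddx58 (-0.44), did not pass. Stat2, a subunit of the type I interferon transcription complex, read 2.77, 2.80 and 2.22 against 3.51, 3.26 and 3.56 (0.41 ± 0.13, limma adjusted p = 0.0481). That call was lost without any 1 of 9 arrays, at limma adjusted p of 0.0506 to 0.157, and was kept only without the first or second basal shROR2 array. Irf9, the DNA-binding subunit of that complex, differed by 0.47 (adjusted p = 0.0864), Irf1 by -0.32 (adjusted p = 0.117) and Irf7, the master regulator of type I interferon genes, by 0.25, from limma. Trim25, an E3 ligase for RIG-I signalling, differed by -0.16. Usp18, which removes ISG15 and restrains interferon signalling, was not well above background in basal shLUC and was at least 1.66-fold lower there (limma adjusted p = 0.0933). Cxcl10, a chemokine that attracts T cells, read 0.207, 0.292 and 0.186 in luminal controls and 0.354, 0.362 and 0.520 in basal controls (0.86 ± 0.29, limma adjusted p = 0.0573).

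The same compartment comparison was made in shROR2 outgrowths. Its means used none of the same arrays, but its errors and p-values rest on 1 spread per feature shared over all 11 arrays. Here 5 members were higher and 5 lower in basal shROR2, 10 of 34 (29.4%), against 10.6% higher and 12.3% lower, 22.9% in all, over all features. Of the 14068 named genes tested, 30.3% were called. The median was 0.02 over members and -0.08 over all features. Ifitm3 read 39.8 and 37.9 in luminal and 203, 200 and 220 in basal shROR2 (2.42 ± 0.11, limma adjusted p = 1.37e-06). Bst2 read 1.62 and 1.63 against 7.87, 9.70 and 7.15 (2.33 ± 0.17, adjusted p = 2.05e-05 from limma). For Nlrc5 the arrays read 1.28 and 1.13 against 6.01, 7.56 and 6.09 (2.44 ± 0.16, limma adjusted p = 1.13e-05). Compared with the control outgrowths, the compartment difference of these 3 genes changed by -0.27 ± 0.15 for Ifitm3, -0.19 ± 0.23 for Bst2 and 0.08 ± 0.22 for Nlrc5, none of it called by limma (adjusted p of 0.681, 0.872 and 0.953). Psmb8 read 14.9 and 12.5 against 5.54, 5.38 and 6.03 (-1.27 ± 0.13, limma adjusted p = 0.000174), Psmb9 11.4 and 9.66 against 5.70, 3.46 and 6.40 (-1.06 ± 0.26, adjusted p = 0.0189) and H2-K1 207 and 189 against 141, 141 and 138 (-0.50 ± 0.10, adjusted p = 0.00862). Ifih1 read 0.462 and 0.591 against 0.279, 0.173 and 0.232 (-1.22 ± 0.28, limma adjusted p = 0.0141), with -0.45 under normexp and -0.43 in the authors' deposited table.

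A further 3 members were called in shROR2 and not in shLUC. Cxcl10 read 0.144 and 0.204 in luminal shROR2 and 0.504, 0.846 and 0.935 in basal shROR2, 4.28-fold higher (2.10 ± 0.32, limma adjusted p = 0.00169). Ifit3, which binds viral RNA with its relatives, was not well above background in luminal shROR2 and read 0.639, 0.354 and 0.547 in basal shROR2, at least 4.28-fold higher with the percentile scaling (limma adjusted p = 0.0201). Both changes were smaller with normexp background correction (log2 change 0.86 for Cxcl10 and 0.84 for Ifit3) and in the authors' deposited table (0.80 and 0.79), where they were called too. Oas1a read 0.752 and 0.829 against 0.366, 0.634 and 0.269 (-0.99 ± 0.30, limma adjusted p = 0.0413), a call kept only without the second basal shROR2 array and lost without any other array (limma adjusted p of 0.0585 to 0.184). Its change was -0.46 under normexp and -0.44 in the authors' deposited table. Its other probe gave -0.64 ± 0.30 (limma adjusted p over all probes = 0.157). With 2 luminal shROR2 arrays the calls depend on each. Without the first, Ifit3 (adjusted p = 0.071), Psmb9 (0.131), H2-K1 (0.0842) and Oas1a lost theirs, and without the second, Ifit3 (0.127), Psmb9 (0.0633), Ifih1 (0.109) and Oas1a did, all from limma, leaving 6 called each time. Conversely, 4 members were called in shLUC and not in shROR2. Ubd (-0.45), Rsad2 (-0.28) and Tap2 (-0.57) lay nearer zero in shROR2, and Stat2 measured 0.40 in shROR2 against 0.41 in shLUC. Whether such pairs of changes differ is the test of the hairpin by compartment reported last, and it called none. The remaining uncalled members with the largest changes in shROR2 were Ifi35 (-1.66), Oas2 (-1.18, at least 1.37-fold lower), Ddx58 (-0.93) and Usp18 (-0.62) on the negative side and Oasl2 (0.75), Irf9 (0.58), Gbp3 (0.56) and Eif2ak2 (0.39) on the positive side. Ifi35's value rests on the third basal shROR2 array, at 0.0247 against 0.439 in each of the others. H2-D1 (-0.30 ± 0.10), Tap1 (-0.07, dim in both groups), B2m (0.04), Irf1 (0.15) and Irf7 (0.28) were not called either. Isg15 differed by 0.37 ± 0.30 without a call. Its dimmer probe gave 0.72 ± 0.15 (limma adjusted p over all probes = 0.0078).

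**Figure D3:**
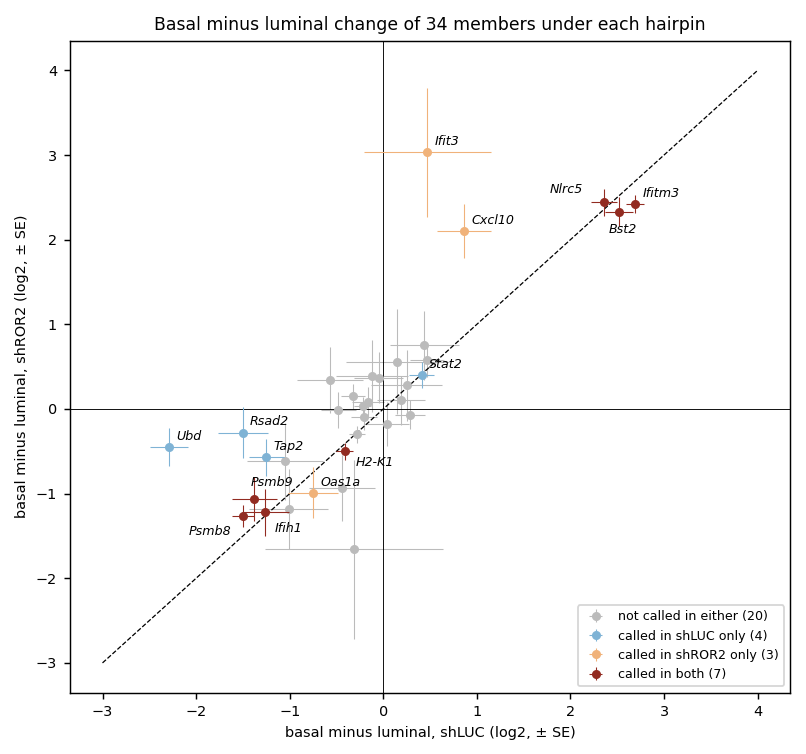
Basal minus luminal change (log2 scaled signal, ± SE) of 34 members in shLUC outgrowths (horizontal) and in shROR2 outgrowths (vertical), with the dashed line at equal change. Under both hairpins 7 members were called, and Ifitm3, Bst2 and Nlrc5 stand at the upper right; Ifit3, Cxcl10, Rsad2 and Ubd lie above the line.

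In basal cells, Irf1 was the only member called after the Ror2 hairpin. Irf1, a transcription factor that interferon gamma induces and that drives class I genes, read 3.92, 4.24 and 3.80 in basal controls and 7.75, 6.51 and 5.72 with the Ror2 hairpin. All shROR2 arrays exceeded all shLUC arrays, and the mean was 1.66-fold higher (0.73 ± 0.13, n = 3 and 3, limma adjusted p = 0.047). Of all features, 0.374% were called higher and 0.574% lower, and of named genes 1.3% were called in either direction. A second, dimmer Irf1 probe read 0.0952, 0.845 and 0.229 against 1.29, 0.153 and 0.425, with overlapping groups (0.73 ± 0.90). The change was 0.79 between arrays of slide 1 and 0.62 on slide 2, and with slide as a block it was 0.73 (limma adjusted p = 0.0734). Fitted on the basal groups alone, Irf1 changed by 0.73 (limma adjusted p = 0.289). The call was kept without the first (adjusted p = 0.0439) or the third (0.0324) basal shROR2 array. It was lost without the second basal shROR2 array (0.0581), without either luminal shROR2 array (0.0754 and 0.0761), without a luminal shLUC array (0.0952, 0.0909 and 0.088) and without a basal shLUC array (0.149, 0.128 and 0.142, in order of replicate), all limma adjusted p. Leukocyte markers rose with Irf1 in these arrays, 9 of 23 of them (39.1%), as did 2 of 13 endothelial markers, and their part in its change was not tested.

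In 8 members all basal shROR2 arrays were above all basal shLUC arrays, and in 4 they were all below, against 6.69% and 11.8% of all features. The members' median change was 0.05, against -0.05 over all features, and was 0.20 without the second basal shROR2 array. Besides Irf1, the members above were Psmb8, Isg15, Tap2, Ubd, Dhx58, Rsad2 and Ifit3. None of these 7 passed the threshold, and 9 of 34 members had an unadjusted limma p under 0.05, against 15.8% of all features. Tap2 read 3.25, 2.95 and 4.11 in basal controls and 6.45, 4.65 and 6.33 with the hairpin (0.76 ± 0.19, limma adjusted p = 0.112). Rsad2 read 0.351, 0.664 and 0.370 against 1.02, 1.14 and 0.725 (1.1 ± 0.27, limma adjusted p = 0.103). Ubd read 0.0988, 0.0993 and 0.109 against 0.156, 0.237 and 0.170 (0.85 ± 0.20, limma adjusted p = 0.0913). With normexp the change was 0.23 for Ubd and 0.60 for Rsad2. These 3 genes and Psmb8 were among the 7 called lower in basal than in luminal shLUC, a comparison that uses the same basal shLUC arrays. Ifit3 went from 0.233, 0.231 and 0.0352 to 0.639, 0.354 and 0.547 (2.01 ± 0.68, limma adjusted p = 0.206), and the lowest shLUC array was not well above background. Isg15 read 2.71, 2.52 and 2.56 against 3.03, 3.03 and 6.46 (0.59 ± 0.26, limma adjusted p = 0.324), so the third shROR2 array stood far above the others. Its dimmer probe was even, at 0.320, 0.321 and 0.372 against 0.586, 0.597 and 0.554 (0.78 ± 0.13, limma adjusted p over all probes = 0.041).

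The remaining differences in basal cells were smaller or less even. Dhx58, the helicase LGP2, differed by 0.92 (limma adjusted p = 0.249), Cxcl10 by 0.86 (0.203), Ifi44 by 0.60 (0.254), Psmb9 by 0.53 (0.323) and Psmb8 by 0.26 (0.328). Tap1 went from 0.161, 0.136 and 0.157 to 0.119, 0.0803 and 0.105, not well above background in shROR2 and at least 1.35-fold lower with the percentile scaling (limma adjusted p = 0.123). Its log2 change was -0.08 with normexp background correction and -0.10 in the authors' deposited table. Its direction was the opposite of Tap2's, with which it is paired in the transporter. H2-K1 (-0.09 ± 0.09), H2-D1 (-0.08 ± 0.09) and B2m (-0.09 ± 0.09) each had the shROR2 arrays just below the shLUC arrays. Ifi35 (-1.26, with the same outlying array), Ddx58 (-0.46) and Oas2 (-0.38, dim in shROR2) were also on the negative side. Irf7 (-0.19), Ifih1 (-0.14), Nlrc5 (-0.12), Bst2 (-0.09), Ifitm3 (-0.06), Stat2 (0.05), Gbp2 (0.00) and Trim25 (0.24) were not called either. The errors use a spread per feature pooled over all groups. Over the members, the median standard deviation was 0.34 in basal shROR2 arrays and 0.13 to 0.18 in the other groups. Errors in this comparison can therefore be too narrow, and those in comparisons without the basal shROR2 arrays too wide.

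**Figure D4:**
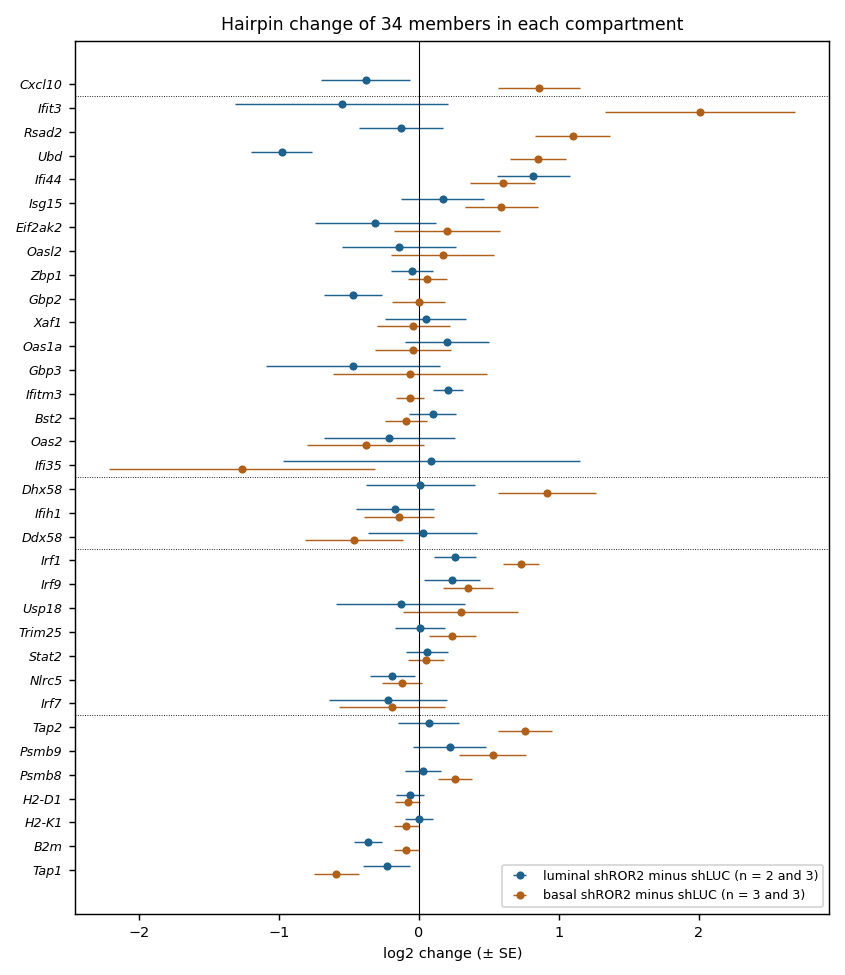
Change with the Ror2 hairpin (shROR2 minus shLUC, log2 scaled signal, ± SE) of 34 members in luminal (blue) and basal (orange) cells, with class I genes at the bottom, then regulators, sensors, antiviral effectors and Cxcl10. Irf1 in basal cells was the only call; Ubd is positive in basal and negative in luminal cells.

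In luminal cells, no member was called after the hairpin (limma), 3 of 34 had an unadjusted p under 0.05 (5.55% of all features did), and 0.0034% of all features (1 feature) was called. The median change was -0.03 over members and 0 over all features. The groups did not overlap, with shROR2 higher, in 7 members, and with shROR2 lower in 4, against 14.8% and 14.2% of all features. Ubd read 0.418, 0.628 and 0.472 in luminal controls and 0.232 and 0.275 with the hairpin (-0.98 ± 0.22, limma adjusted p = 0.353). B2m read 79.5, 81.5 and 80.7 against 64.6 and 61.2 (-0.36 ± 0.10, limma adjusted p = 0.578). Ifi44 read 0.120, 0.139 and 0.0951 against 0.218 and 0.194 (0.82 ± 0.26, limma adjusted p = 0.689). With normexp the change was -0.43 for Ubd and 0.22 for Ifi44, and in the authors' deposited table -0.40 and 0.23. Ubd, B2m and Ifi44 each had separate groups of arrays, as did Gbp2 (-0.47, limma adjusted p = 0.907) and Ifitm3 (0.21, limma adjusted p = 0.98), without a call. Ifit3 (-0.55), Gbp3 (-0.47), Cxcl10 (-0.38), Eif2ak2 (-0.31) and Tap1 (-0.23, dim in both groups) completed the most negative changes. Irf1 (0.26, at 4.99, 4.95 and 4.93 against 6.46 and 5.46), Irf9 (0.24), Psmb9 (0.22), Oas1a (0.20), Isg15 (0.17) and Bst2 (0.10) were the most positive. H2-K1 (0.00), Stat2 (0.06), Psmb8 (0.03), Nlrc5 (-0.19) and Irf7 (-0.22) lay within 2 SE of zero. The leukocyte markers had a median change of 0.57 in this comparison, with none called.

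The hairpin changes in basal and luminal cells were then subtracted from each other. No member differed between compartments by this test (limma), 0% of all features were called, and 6 of 34 members had an unadjusted p under 0.05, against 8.3% of all features. Ubd had the smallest p, with a change 1.83 ± 0.30 higher in basal than in luminal cells (adjusted p = 0.188 from limma). That difference was 0.66 with normexp background correction and 0.60 in the authors' deposited table. It was lower with the hairpin in both luminal shROR2 arrays and higher in all 3 basal shROR2 arrays, relative to the arrays of their controls. Rsad2 (1.22 ± 0.41, limma adjusted p = 0.5), Cxcl10 (1.24 ± 0.43, 0.516), Ifit3 (2.56 ± 1.02, 0.564), Tap2 (0.68 ± 0.29, 0.585) and Irf1 (0.47 ± 0.20, 0.589) followed. Of the 34 members, 22 had a difference above 0 and 12 below. The most negative were Ifi35 (-1.35 ± 1.42, with its outlying array), Ddx58 (-0.49 ± 0.52) and Tap1 (-0.36 ± 0.23). With normexp the differences were 0.64 for Rsad2, 0.55 for Cxcl10 and 0.73 for Ifit3. In the authors' deposited table they were 0.59, 0.49 and 0.67. The median difference was 0.17 over members and -0.05 over all features, and was 0.06 over members without the third basal shROR2 array. The same contrast is the change in the basal minus luminal difference between the hairpins.

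Other genes of the pathway came from 4 lists chosen beside the members. Of their 118 genes tested, 33 (28%) were called between compartments in shLUC and 41 (34.7%) in shROR2. The shares were 26.9% and 22.9% over all features, and 33.8% and 30.3% over the named genes tested. Of 16 tested interferon, receptor and JAK-STAT genes (22 listed), 3 were higher and 2 lower in basal than in luminal shLUC, and 3 and 4 in shROR2. Socs1, a feedback inhibitor of JAK kinases, was higher in basal cells (2.63 ± 0.14, limma adjusted p = 2.08e-06) and Ifnlr1, the interferon lambda receptor subunit, lower (-1.72 ± 0.26, adjusted p = 0.00136). Socs3, another inhibitor, was higher by 0.80 and Ifngr2, an interferon gamma receptor subunit, was lower (-1.35). None of these 16 was called after the hairpin in either compartment, with 6 in basal and 2 in luminal cells at an unadjusted limma p under 0.05. Of 22 tested sensors, adaptors and interferon regulatory factors (24 listed), 1 was higher and 3 lower in basal shLUC, and 2 and 3 in shROR2. Ifi204, a DNA sensor of the p200 family, was higher in basal shLUC (1.05 ± 0.18, limma adjusted p = 0.00232). After the hairpin, 1 of the 22 was called higher in basal cells and 1 lower (9.09% in all), against 0.948% of all features. Ifi204 was the one called higher (1.07 ± 0.18, limma adjusted p = 0.0378). Over the 118 genes of the 4 lists, 3 were called in that comparison (2.54%), against 1.3% of the named genes tested.

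Of 53 other interferon-stimulated genes tested (63 listed), 6 were higher and 6 lower in basal shLUC, and 11 and 6 in shROR2. Irgm1, an immunity-related GTPase, was higher in basal cells of both (1.43 ± 0.12 and 1.53 ± 0.13), and so was Lgals9, which encodes galectin-9 (1.84 in shLUC). Lgals3bp, a secreted galectin-binding protein, was lower in both (-1.01 in shLUC and -1.54 ± 0.13 in shROR2). Ifitm2, a relative of Ifitm3, was higher in shLUC by 0.97 ± 0.10. After the hairpin, Phf11b was the only call in basal cells (1.02 ± 0.16, limma adjusted p = 0.0293), and Cd274, which encodes PD-L1, measured 1.57 ± 0.42 (adjusted p = 0.125). Of 27 other class I loading and class I-like genes tested (30 listed), 4 were higher and 8 lower in basal shLUC, and 1 and 11 in shROR2. H2-Q1, a class Ib heavy chain gene, was lower by a log2 change of -2.33 ± 0.29 in shLUC and -2.89 ± 0.32 in shROR2. Tapbpl (0.72 ± 0.13) and Fcgrt (1.00 ± 0.20), which encode a peptide-loading editor and the neonatal Fc receptor, were higher in basal shLUC. Pdia3, a chaperone of class I loading, was lower in basal shROR2 (-0.69 ± 0.11), as was Psmb5, the constitutive proteasome subunit that Psmb8 replaces (-0.96 ± 0.16). None of the 27 was called after the hairpin in basal cells by limma, where 5 had an unadjusted p under 0.05, and no gene of the 4 lists was called in luminal cells, where 5 of 118 had one.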

How the data were processed

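The arrays were scanned and extracted with Agilent Feature Extraction 11.0.1.1, per the file headers, and the deposited per-array files give processed signal as a linear intensity per spot. Replicate spots were averaged into 55681 probes (26582 named through RefSeq accessions). Each array's log2 intensity was centred on its 75th percentile; features well above background on at least 3 of 11 arrays were kept, with the probe of highest mean signal per gene. Changes were fitted with limma 3.58.1 in R 4.3.3 (lmFit, eBayes, 4 group means, all 11 arrays; two-sided; Benjamini-Hochberg over 29429 features; called under 0.05). A fold given as "at least" sets the brighter group's mean against the higher of the dim probe's own signal and the lowest signal well above background. Such a fold is a lower bound under the percentile scaling only. The fit was also run on simulated data with changes of known size and 1 spread per feature for all groups. In the real data the basal shROR2 arrays spread more (median SD 0.345, against 0.143 to 0.188 in the other groups). That run therefore did not test the fit under unequal spread. Members and gene lists were chosen with earlier results of these data known. Named members were drawn from those called, the 8 largest changes each way and a fixed set, with up to 3 pathway genes per list. Not all of them are given in every comparison. Same-numbered samples did not deviate together (r from -0.04 to 0.04). With 2 or 3 arrays per group, that does not settle which samples came from 1 outgrowth. Other settings tried were median and quantile scaling, normexp (offset 50; on the median foreground signal, since the files hold no mean), the value table the authors deposited, other filters and probe rules, array weights, blocks on slide and on replicate, the compared groups alone, and each array left out. That value table is linear and not centred on genes (column medians 88.792 to 89.333), while its background treatment is unknown. Figures used Python 3.11.15 and matplotlib 3.10.9. Values of some genes of the pathway and marker lists are not reported here.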

Additional observations from a re-analysis of the deposited data

Results flagged for a closer look

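Ubd is listed for a closer look because its hairpin change took opposite directions in the compartments: all 3 basal shROR2 arrays were above all basal shLUC arrays, and both luminal shROR2 arrays were below all luminal shLUC arrays. The difference of the changes was 1.83 (log2), with a limma adjusted p of 0.188, and ranged from 1.65 to 1.96 when arrays were left out in turn. It was 0.66 with normexp background correction and 0.60 in the authors' deposited table.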

How the results depend on the processing

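No called member changed sign under an alternative run. Changes of some members shrank by over 1.5 times with normexp, which adds an offset of 50 to every signal, and in the authors' deposited table. The cause was not tested. Among those called, they were Ubd, Rsad2 and Ifih1 in shLUC and Ifit3, Cxcl10, Ifih1 and Oas1a in shROR2, at the values given with each. Uncalled changes that shrank likewise included Ubd and Ifi44 in luminal cells after the hairpin, and Ubd, Rsad2 and Tap1 in basal cells. So did the differences of the hairpin changes for Ubd, Rsad2, Cxcl10 and Ifit3. The count of members called in basal cells after the hairpin, 1 as reported, was 3 with normexp background correction (Ifit3, Irf1 and Tap2), 2 in the authors' deposited table (Irf1 and Tap2), and 0 with no filter on dim probes, the mean of all probes of a gene, array weights, a slide block or only the groups compared, and it ranged from 0 to 1 when arrays were left out in turn; the cause was not tested. The count lower or higher in basal shLUC, 11 as reported, was 19 with array weights and 17 with only the groups compared. It was 16 in the authors' deposited table, 14 with normexp, and 10 to 13 with arrays left out. In shROR2 it was 10 as reported, 14 with normexp and in the authors' deposited table, 6 with only the groups compared and 6 to 13 with arrays left out. The labels do not say whether replicate numbers pair the samples. With the number as a block, the counts were 0 in luminal and 0 in basal cells after the hairpin. They were 0 for the difference of these changes, 11 in shLUC and 9 in shROR2. With a slide block they were 12 in shLUC and 9 in shROR2. Within slides 1 and 2 the members' median change was 0.03 and -0.06 in luminal and 0.09 and 0.24 in basal cells after the hairpin, and -0.17 and -0.23 in shLUC and -0.06 and 0.04 in shROR2 between compartments. Irf1's adjusted p in basal cells ran from 0.018 to 0.512 over 22 alternatives. Features called in basal cells after the hairpin ran from 0 to 892. Dim probes (8 of 34 members on some arrays) and 2 luminal shROR2 arrays limit the precision.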
